A study of Mus musculus with 12 samples.

Results

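Umod, Slc12a1, Kcnj1, Bsnd, Slc12a3, Wnk1, Wnk4, Stk39 and Klhl3 are 9 genes of salt transport in the thick ascending limb of the loop of Henle and the distal convoluted tubule. They were chosen by name, for their place in these segments and with earlier results of these data known, and make up 9 of the 57490 genes in the count table. RNA-seq of mouse kidney was carried out to ask how diabetes, and then treatment with Yiqi Huoxue Yangyin Decoction (YHY), changes the kidney transcriptome. Each group held 4 male mice of 13 weeks, on the BKS background (BKS.Cg-Dock7m +/+ Leprdb/JNju for db/db). The Ctrl group was heterozygous db/m mice, which carry a single copy of the db allele and are not diabetic, given purified water by gavage. The Model group was leptin receptor mutant db/db mice, selected for high blood glucose and given purified water, and the YHY group was db/db mice given YHY water extract at 6.24 g/mL by daily gavage for 4 weeks. The labels give this concentration, and which of the 3 doses of the study it was is not stated in the sources used here. Because the db/db mice lack normal leptin receptor signalling, obesity and diabetes cannot be told apart in them. The labels call the tissue whole kidney in one field and renal cortex in another.

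In the thick ascending limb, the apical cotransporter encoded by Slc12a1 takes up sodium, potassium and chloride, the channel encoded by Kcnj1 returns potassium to the lumen, and Bsnd encodes barttin, a subunit needed for chloride to leave the cell. Umod encodes uromodulin, the protein that this segment secretes into urine in large amounts. Downstream, the thiazide-sensitive cotransporter encoded by Slc12a3 reabsorbs sodium and chloride, driven by WNK kinases through the kinase SPAK (Stk39), while the Klhl3 adaptor marks WNK kinases for degradation.

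Libraries held 29632718 to 33276634 counts in Ctrl, 24415658 to 29784346 in Model and 25149764 to 29698342 in YHY. Transcripts of the mitochondrial genome took 19.5% ± 2.12 of the counts from Ctrl mice, 52.2% ± 7.68 from Model mice and 56.8% ± 5.21 from YHY mice (SD, n = 4 each). YHY mouse 2 had the highest share, 64.6% (95% Wilson interval 64.58 to 64.62, counting error only). Values are given as CPM, each gene's counts relative to the library total, after TMM scaling, which sets libraries level on the bulk of genes. With scaling by library size alone, the median log2 fold change of all genes moved from 0.04 to -0.39 for Model against Ctrl and from 0.10 to -0.33 for YHY against Ctrl. What part the mitochondrial share had in the results was not tested. All 9 genes passed the filter on low counts, as did 17431 genes in all. Adjusted P values are from the quasi-likelihood test of edgeR, two-sided, with Benjamini-Hochberg adjustment over those genes, and a gene was called at an adjusted P under 0.05.

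In Model kidneys, 6 of the 9 genes differed from Ctrl. Umod and Kcnj1 were lower, Slc12a3, Wnk1, Wnk4 and Klhl3 were higher, and Slc12a1, Bsnd and Stk39 did not pass the test. Among all genes, 38.0% were called, 19.6% higher and 18.5% lower, so a high share of calls is not particular to these genes. The median log2 fold change was 0.34 for the 9 genes and 0.04 for all genes tested. CPM ranges of the 2 groups did not overlap for 5 of the 9 genes, Umod, Slc12a3, Wnk1, Wnk4 and Klhl3, against 40.2% of all genes. Scaling by library size alone gave 1547 genes higher and 5670 lower, against 3412 and 3219 with TMM, and the calls of the 9 genes were the same there except for Wnk1. Less RNA per cell and fewer cells of a segment cannot be told apart in these bulk samples.

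In YHY kidneys compared with Model, 0 of the 9 genes were called by edgeR, against 13.3% of all genes (5.63% higher and 7.62% lower). TMM gave 982 genes higher and 1329 lower there, library size alone 491 and 687, and the fit without Model mouse 3 gave 419 and 727, with 0 of the 9 genes called in each. Umod alone of the 9 had an edgeR unadjusted P under 0.05, against 28.6% of all genes. DESeq2 called 1 of the 9, Umod, and among all genes 1435 higher and 1685 lower. CPM ranges did not overlap for 0 of the 9 genes, against 16.1% of all genes. For YHY against Ctrl, Umod and Kcnj1 were lower and Slc12a3, Wnk1, Wnk4 and Klhl3 higher, against 50.3% of all genes called, 26.1% higher and 24.2% lower. Library size alone gave 2365 genes higher and 5979 lower there, against 4547 and 4215 with TMM. Ranges of 4 of the 9 genes, Umod, Slc12a3, Wnk4 and Klhl3, did not overlap there, against 44.6% of all genes. The 3 comparisons share mice, so their values stand side by side without a test between them.

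**Figure D1:**
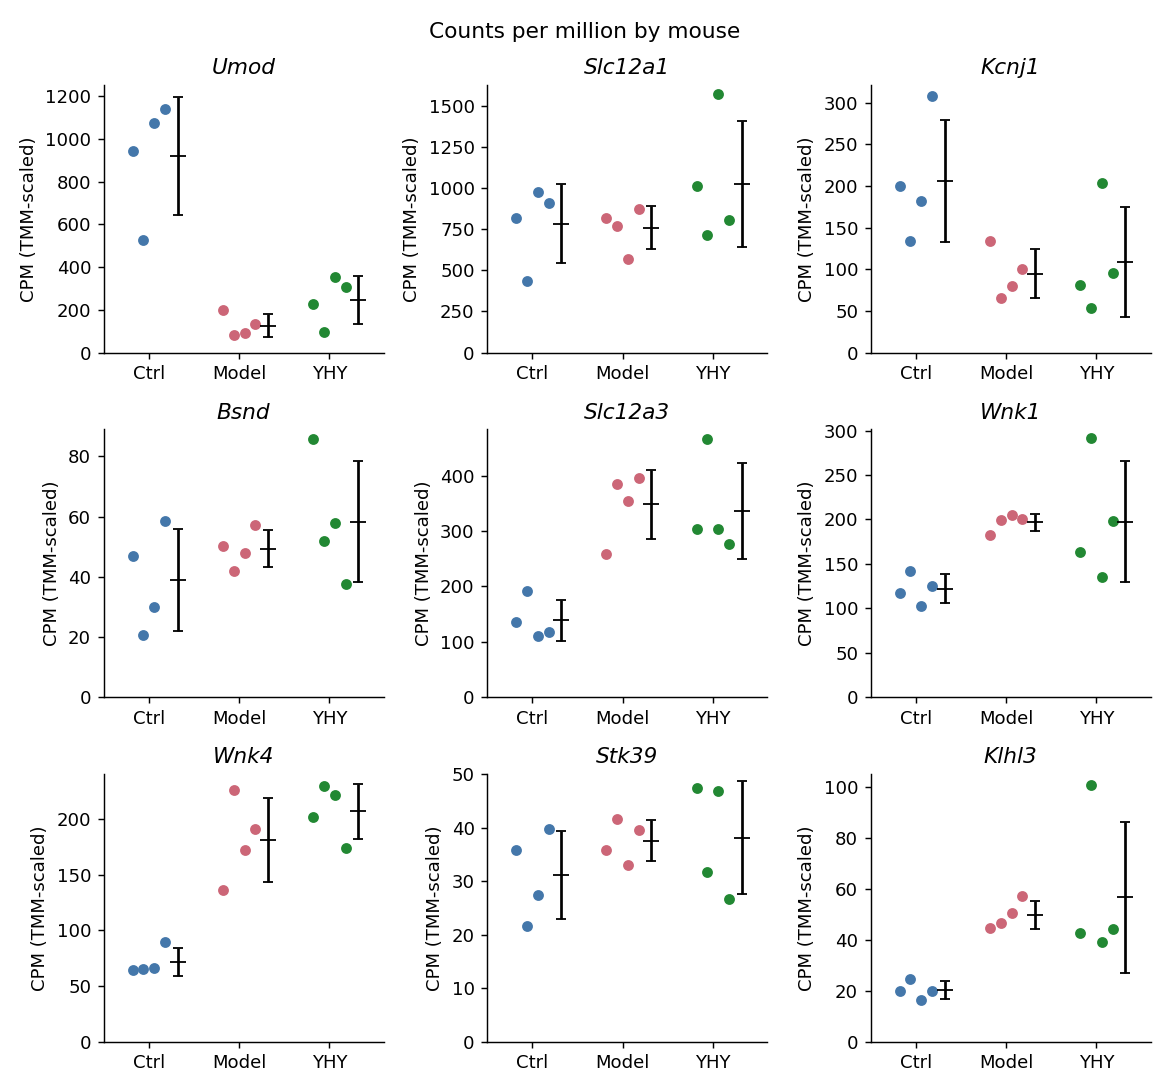
CPM of the 9 genes in each mouse (points, TMM-scaled, linear axes from 0), with the mean and SD of 4 mice beside each group. Umod lay between 80.8 and 199.8 CPM in Model and between 525 and 1137 CPM in Ctrl, while Slc12a1 overlapped among all 3 groups.

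Umod (ENSMUSG00000030963) is the marker by which thick ascending limb cells are commonly known. Its gene lies on the minus strand at chr7:119061934-119078505 on GRCm39, the build in the submitters' notes. For Slc12a1 and the 3 genes whose counts are compared with it as ratios below, the 250 bases before each start are printed from the RefSeq table of GRCm38.p6 promoters, which held 8 of the 9 genes (Bsnd was the exception). The windows lie at chr7:119479263-119479512 (minus strand) for Umod, chr2:125152350-125152599 (plus strand) for Slc12a1, chr9:32393735-32393984 (plus strand) for Kcnj1 and chr8:94328958-94329207 (plus strand) for Slc12a3. Capitals mark GTTAA or its reverse complement TTAAC, letters that recur in sites of the kidney transcription factor HNF1.
Umod: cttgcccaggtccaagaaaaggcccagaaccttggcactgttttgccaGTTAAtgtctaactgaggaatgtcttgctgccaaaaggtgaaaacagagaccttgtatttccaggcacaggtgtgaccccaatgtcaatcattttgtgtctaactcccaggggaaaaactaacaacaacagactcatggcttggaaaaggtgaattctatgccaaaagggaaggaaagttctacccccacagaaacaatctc
Slc12a1: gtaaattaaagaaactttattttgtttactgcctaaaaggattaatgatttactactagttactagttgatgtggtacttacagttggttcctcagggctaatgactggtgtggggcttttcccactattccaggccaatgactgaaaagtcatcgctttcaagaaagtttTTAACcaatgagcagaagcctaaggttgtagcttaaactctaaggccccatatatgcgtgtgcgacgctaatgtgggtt
Kcnj1: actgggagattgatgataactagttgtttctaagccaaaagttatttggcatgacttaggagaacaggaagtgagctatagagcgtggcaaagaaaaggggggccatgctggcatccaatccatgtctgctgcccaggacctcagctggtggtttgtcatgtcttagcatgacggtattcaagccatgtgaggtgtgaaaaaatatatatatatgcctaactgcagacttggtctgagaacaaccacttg
Slc12a3: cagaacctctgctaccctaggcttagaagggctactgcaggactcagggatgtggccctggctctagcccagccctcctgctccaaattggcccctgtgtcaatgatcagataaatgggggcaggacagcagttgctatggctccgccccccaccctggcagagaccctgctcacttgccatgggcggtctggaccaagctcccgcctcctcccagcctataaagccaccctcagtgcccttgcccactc
Searched on both strands, GTTAA was in 2 of the 8 windows, those of Umod and Slc12a1, and in 21.7% of all 32851 windows of this length. AAGGTCA, with its reverse complement TGACCTT, was in 0 of the 8 and in 4.1% of all. These matches describe the letters in the windows and no binding was measured.

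Umod counts stood at 943, 525, 1075 and 1137 CPM in the 4 Ctrl mice, at 199.8, 80.8, 90.9 and 134 CPM in Model, and at 229 CPM, 97.2 CPM, 355 CPM and 309 CPM in YHY. Every db/db mouse, treated or not, lay below every Ctrl mouse, and YHY mouse 2 lay within the range of Model while the other 3 YHY mice lay above it. Umod fell by 2.86 on the log2 scale in Model against Ctrl (SE 0.38, 95% interval -3.68 to -2.05, edgeR adjusted P = 5.43e-05). Against Ctrl, YHY mice were lower by a log2 fold change of -1.89 (SE 0.37, edgeR adjusted P = 0.000535). The difference between YHY and Model was 0.97 (SE 0.36, 95% interval 0.20 to 1.74, n = 4 per group). It missed the threshold by edgeR (adjusted P = 0.0883) and passed with DESeq2 (adjusted P = 0.0312), without the filter on low counts (0.96, edgeR adjusted P = 0.0123), with a replicate block (0.89, edgeR adjusted P = 0.0475), without Model mouse 1 (1.29, edgeR adjusted P = 0.0484) and without YHY mouse 2 (1.24, edgeR adjusted P = 0.0239). Over all alternatives its adjusted P ran from 0.0123 to 0.226.

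Slc12a1 (ENSMUSG00000027202) was at 816, 435, 973 and 907 CPM in Ctrl, at 820.0, 768, 572 and 872 CPM in Model, and at 1010.0, 712, 1569 and 806 CPM in YHY. The groups overlapped throughout, Ctrl mouse 2 was the lowest of the 12 mice and YHY mouse 3 the highest. The log2 fold change was -0.05 for Model against Ctrl (SE 0.27, 95% interval -0.62 to 0.53, edgeR adjusted P = 0.91), and its sign turned with upper-quartile scaling (0.06). An interval of this width leaves room for a change in either direction. For YHY against Model it was 0.43 (SE 0.27, edgeR adjusted P = 0.314).

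Kcnj1 (ENSMUSG00000041248) was at 199.9, 134, 182 and 308 CPM in Ctrl, at 134, 65.5, 79.8 and 100.01 CPM in Model, and at 81.6, 53.4, 204 and 95.1 CPM in YHY. Model mouse 1 reached the lowest Ctrl mouse and YHY mouse 3 lay within the Ctrl range, so the groups overlapped. Kcnj1 was called lower in Model (log2 fold change -1.12, SE 0.35, edgeR adjusted P = 0.0199) and in YHY against Ctrl (-0.92, SE 0.35, edgeR adjusted P = 0.0374). The first call was lost without Ctrl mouse 4 (-0.90, edgeR adjusted P = 0.0677), without Model mouse 2 (-0.98, 0.0682) and without Model mouse 3 (-1.04, 0.0595). The second was lost without Ctrl mouse 1 (-0.98), Ctrl mouse 4 (-0.71), YHY mouse 1 (-0.81), YHY mouse 2 (-0.70) or YHY mouse 4 (-0.87), with DESeq2 (-0.92, adjusted P = 0.075), with upper-quartile scaling (-0.78) and with the 8 mice compared alone (-0.95). Over all alternatives the edgeR and DESeq2 adjusted P ran from 0.000291 to 0.0682 for Model and from 0.00124 to 0.121 for YHY.

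Bsnd (ENSMUSG00000025418), which encodes barttin, ranged from 20.5 to 58.6 CPM in Ctrl, 42.1 to 57.2 CPM in Model and 37.8 to 85.7 CPM in YHY. It was not called in any of the 3 comparisons by edgeR. For YHY against Ctrl its log2 fold change was 0.58 (SE 0.28, edgeR adjusted P = 0.0964). That comparison passed with upper-quartile scaling (0.72, adjusted P = 0.0457), without the filter on low counts (0.54, 0.0464), without Ctrl mouse 4 (0.79, 0.0325) and without YHY mouse 4 (0.74, 0.0365), and over all alternatives its adjusted P reached 0.742.

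Slc12a3 (ENSMUSG00000031766), the target of thiazide diuretics, was at 135, 191, 111 and 117 CPM in Ctrl, at 258, 385, 355 and 396 CPM in Model, and at 303, 466, 304 and 276 CPM in YHY. All 8 db/db mice lay above all 4 Ctrl mice, and Model and YHY overlapped. It was higher in Model by a log2 fold change of 1.33 (SE 0.22, 95% interval 0.87 to 1.80, edgeR adjusted P = 0.000256). Against Ctrl, YHY mice differed by 1.28 (SE 0.22, edgeR adjusted P = 0.00017). YHY against Model gave -0.05 (SE 0.22, 95% interval -0.51 to 0.41, edgeR adjusted P = 0.918).

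Wnk4 (ENSMUSG00000035112), a kinase that acts on this cotransporter through SPAK, was at 63.9, 65.3, 65.9 and 89.8 CPM in Ctrl, at 136, 226, 172 and 191 CPM in Model, and at 202, 229.8, 222 and 174 CPM in YHY. Again every db/db mouse lay above every Ctrl mouse. Its log2 fold change was 1.35 in Model (SE 0.18, edgeR adjusted P = 5.15e-05) and 1.54 in YHY (SE 0.18, edgeR adjusted P = 6.03e-06), each against Ctrl. Wnk1 (ENSMUSG00000045962), whose kidney form lacks most of the kinase domain, was at 117, 142, 103 and 125 CPM in Ctrl, at 183, 199.0, 205 and 200.1 CPM in Model, and at 164, 292, 136 and 198 CPM in YHY. Model lay above Ctrl in all 4 mice, whereas YHY mouse 3 fell within the Ctrl range. The counts sum all forms of Wnk1, so the kidney form was not measured apart. The Wnk1 log2 fold change was 0.69 in Model (SE 0.20, edgeR adjusted P = 0.013) and 0.70 in YHY against Ctrl (SE 0.20, edgeR adjusted P = 0.00881). With library size alone these were 0.26 (edgeR adjusted P = 0.264) and 0.22 (0.349), and without Ctrl mouse 3 the Model value was 0.57 (0.0569). Over all alternatives the adjusted P ran from 0.00111 to 0.264 for Model and from 0.00217 to 0.349 for YHY.

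Klhl3 (ENSMUSG00000014164), which binds WNK kinases for the CUL3 ubiquitin ligase, was at 19.8, 24.7, 16.5 and 19.95 CPM in Ctrl, at 44.6, 46.4, 50.5 and 57.1 CPM in Model, and at 42.6, 101, 38.9 and 44.0 CPM in YHY. The db/db mice all lay above Ctrl, and YHY mouse 2 stood far above the rest. The log2 fold change against Ctrl was 1.30 in Model (SE 0.25, edgeR adjusted P = 0.000962) and 1.48 in YHY (SE 0.26, edgeR adjusted P = 0.000182). Stk39 (ENSMUSG00000027030), which encodes SPAK, ranged from 21.6 to 39.7 CPM in Ctrl, 33.1 to 41.7 CPM in Model and 26.7 to 47.4 CPM in YHY, with overlap throughout. Its log2 fold change was 0.27 in Model (SE 0.21, edgeR adjusted P = 0.33) and 0.29 in YHY against Ctrl (SE 0.21, edgeR adjusted P = 0.261), and both turned negative with library size alone (-0.19 and -0.12). Genes that overlap these on the genome had at most 0.311% of the counts of the gene they overlap, Wnk1, and whether reads were counted by strand is not given in the sources used here.

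**Figure D2:**
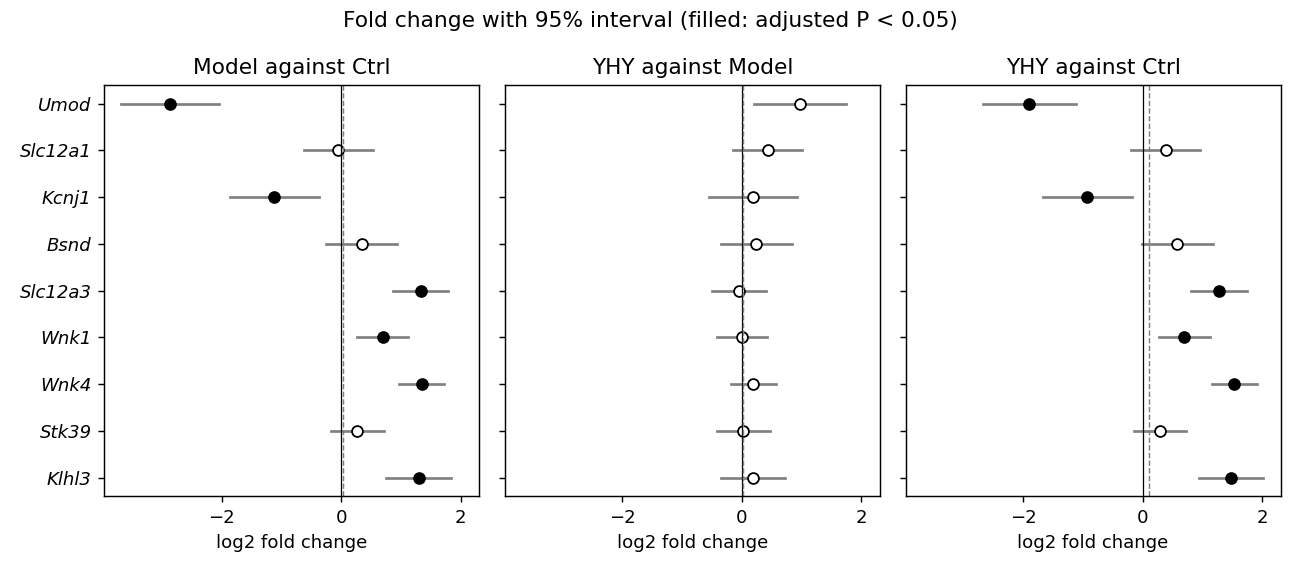
Log2 fold change of each gene (points) with its 95% interval (lines) in the 3 comparisons; filled points had an edgeR adjusted P under 0.05, and the dashed line is the median of all genes. In the middle panel no point is filled, and Umod has the largest value of the 9, 0.97.

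To compare levels between genes, CPM was divided by the gene length in the count table (FPKM). These lengths ran from 2756 bases for Bsnd to 22825 for Wnk1, with 2763 for Umod, 4148 for Wnk4 and 11119 for Slc12a3. The lengths of the transcripts present were not measured. The order between genes therefore depends on the listed lengths, and a listed length above that of the transcripts lowers FPKM. In Ctrl, Umod stood first at 333 ± 99.7 FPKM (SD, n = 4), followed by Slc12a1 at 136 ± 41.8, Kcnj1 at 61.8 ± 22.0 and Wnk4 at 17.2 ± 3.00. Then came Bsnd at 14.1 ± 6.18, Slc12a3 at 12.5 ± 3.30, Stk39 at 6.29 ± 1.65, Wnk1 at 5.33 ± 0.715 and Klhl3 at 2.76 ± 0.460 FPKM. The ranges of neighbours overlapped between Slc12a1 and Kcnj1, among Wnk4, Bsnd and Slc12a3, and between Stk39 and Wnk1. In Model the order was Slc12a1 at 132 ± 22.8, Umod at 45.7 ± 19.6, Wnk4 at 43.7 ± 9.06, Slc12a3 at 31.3 ± 5.62 and Kcnj1 at 28.5 ± 8.94 FPKM. Bsnd at 17.9 ± 2.27, Wnk1 at 8.62 ± 0.424, Stk39 at 7.58 ± 0.771 and Klhl3 at 6.78 ± 0.758 FPKM closed it. Neighbours overlapped there except for Slc12a1 with Umod and Bsnd with Wnk1. In YHY, Slc12a1 was at 178 ± 66.6, Umod at 89.6 ± 40.9, Wnk4 at 49.9 ± 5.99, Kcnj1 at 32.5 ± 19.8 and Slc12a3 at 30.3 ± 7.80 FPKM, with Bsnd, Wnk1, Klhl3 and Stk39 below them, and all neighbours overlapped except Bsnd with Wnk1. Among the 17431 genes, Umod ranked 95 by mean FPKM in Ctrl, 666 in Model and 262 in YHY, while Slc12a1 ranked 309, 210 and 94.

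Ratios of counts within a library do not depend on how libraries are scaled. The ratio of Umod to Slc12a1 counts was 1.16, 1.21, 1.11 and 1.25 in Ctrl, 0.244, 0.105, 0.159 and 0.153 in Model, and 0.227, 0.137, 0.227 and 0.383 in YHY. Ctrl mouse 2, which had the lowest level of both genes in its group, had a ratio within those of the other Ctrl mice. All Model and YHY mice lay below all Ctrl mice. The log2 difference was -2.90 for Model against Ctrl (SE 0.25, exact two-sided permutation P = 0.0286, adjusted P = 0.0571 over 12 tests). For YHY against Ctrl it was -2.37 (exact permutation P = 0.0286, adjusted P = 0.0571), and for YHY against Model 0.53 (exact permutation P = 0.286, adjusted P = 0.343). The smallest P that 4 mice against 4 can give is 0.0286, and no ratio passed the threshold after adjustment.

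The ratio of Kcnj1 to Slc12a1 was 0.245, 0.308, 0.187 and 0.339 in Ctrl, 0.164, 0.0854, 0.140 and 0.115 in Model, and 0.0807, 0.0750, 0.130 and 0.118 in YHY. Although Kcnj1 itself overlapped between groups, this ratio was lower in all 8 db/db mice than in any Ctrl mouse. The log2 difference from Ctrl was -1.10 in Model and -1.42 in YHY (exact permutation P = 0.0286, adjusted P = 0.0571 for each). Wnk1 to Wnk4 was 1.83, 2.18, 1.57 and 1.39 in Ctrl, 1.35, 0.881, 1.195 and 1.05 in Model, and 0.811, 1.27, 0.612 and 1.14 in YHY. All 8 db/db mice lay below all 4 Ctrl mice in this ratio as well. The log2 difference was -0.64 in Model and -0.90 in YHY (exact permutation P = 0.0286, adjusted P = 0.0571 for each). Slc12a3 to Slc12a1 was 0.166, 0.440, 0.114 and 0.129 in Ctrl, 0.315, 0.502, 0.621 and 0.454 in Model, and 0.300, 0.654, 0.194 and 0.342 in YHY. Ctrl mouse 2 overlapped both other groups, and the log2 difference of 1.3445 for Model had an exact permutation P of 0.0571 (adjusted P = 0.098). How many other pairs of genes have ratios that separate the groups was not tested. CPM ranges of single genes did not overlap for 40.2% of all genes in Model and 44.6% in YHY, each against Ctrl.

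**Figure D3:**
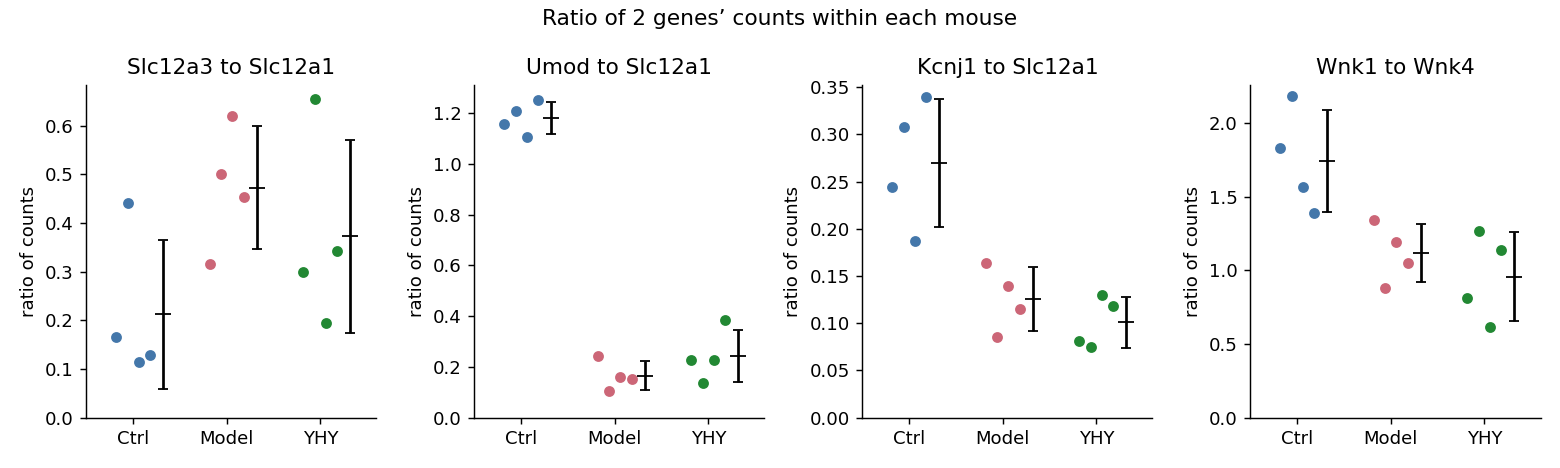
Ratio of the counts of a pair of genes in each mouse (points, linear axes from 0), with the mean and SD of 4 mice beside each group. Umod to Slc12a1 lay between 1.11 and 1.25 in Ctrl and at or below 0.383 in all Model and YHY mice.

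Of 23 other genes of the thick ascending limb tested of 24 listed (Cldn14 did not pass the filter), 5 were higher and 6 lower in Model against Ctrl, where 19.6% of all genes were higher and 18.5% lower, with a median log2 fold change of -0.19 against 0.04 for all genes. Cldn16, a claudin that lets magnesium pass between cells, was lower (-1.29, SE 0.32, edgeR adjusted P = 0.00546), as was the potassium channel gene Kcnj16 (-1.28, SE 0.22, edgeR adjusted P = 0.000301). Ptgs2, which encodes the prostaglandin synthase COX-2, was higher (1.56, SE 0.36, edgeR adjusted P = 0.00281). The nuclear receptor gene Esrrb was higher too (1.19, SE 0.30, edgeR adjusted P = 0.00585), a call lost with library size alone (0.72, adjusted P = 0.12). For YHY against Ctrl, 6 were higher and 7 lower, where 26.1% of all genes were higher and 24.2% lower. These included Ptgs2, which was higher (2.17, SE 0.36, edgeR adjusted P = 0.000133), and Kcnj16, which was lower (-1.59, SE 0.22, edgeR adjusted P = 2.31e-05). For YHY against Model, 5.63% of all genes were higher and 7.62% lower. In this list 0 were higher and 1 was lower, the nuclear receptor gene Esrrg (-0.70, SE 0.17, edgeR adjusted P = 0.0147). That call was lost with library size alone (-0.72, adjusted P = 0.053), with the 8 mice compared alone (-0.65, 0.0592) and with 9 mice (-0.46, 0.0819).

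Of 18 other genes of the distal convoluted tubule tested of 19 (Kcna1 did not pass the filter), 2 were higher and 6 lower in Model, with a median of 0.07 against 0.04 for all genes, and 3 were higher and 10 lower in YHY against Ctrl, with a median of -0.51 against 0.10. Of all genes, 19.6% were higher and 18.5% lower in the first comparison and 26.1% and 24.2% in the second. The magnesium channel gene Trpm6 was higher in Model (2.07, SE 0.37, edgeR adjusted P = 0.000435). Atp1b1, which encodes a beta subunit of the sodium pump, was lower (-2.18, SE 0.25, edgeR adjusted P = 1.65e-05), as was Hsd11b2, which inactivates glucocorticoids (-1.54, SE 0.26, edgeR adjusted P = 0.000329). Atp1b1 and Hsd11b2 are also expressed outside this segment. For YHY against Model, where 5.63% of all genes were higher and 7.62% lower, 1 gene of the list was higher and 3 lower. These included Pvalb, the parvalbumin of the early segment (-1.59, SE 0.36, edgeR adjusted P = 0.0102), and Emx1 (-0.83, SE 0.18, edgeR adjusted P = 0.00923). The others were near the threshold. Atp1b1 (0.76, SE 0.24, edgeR adjusted P = 0.0497) was lost under 7 of 18 alternatives, among them library size alone (0.78, edgeR adjusted P = 0.146). Fxyd2 (-0.66, SE 0.21, edgeR adjusted P = 0.0476) was lost under 14 of 18, among them library size alone (-0.64, edgeR adjusted P = 0.145). Pvalb stood at 78.5 ± 25.9 CPM for Ctrl, 93.9 ± 38.5 for Model and 31.2 ± 16.1 for YHY (mean and SD of 4 mice).

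**Figure D4:**
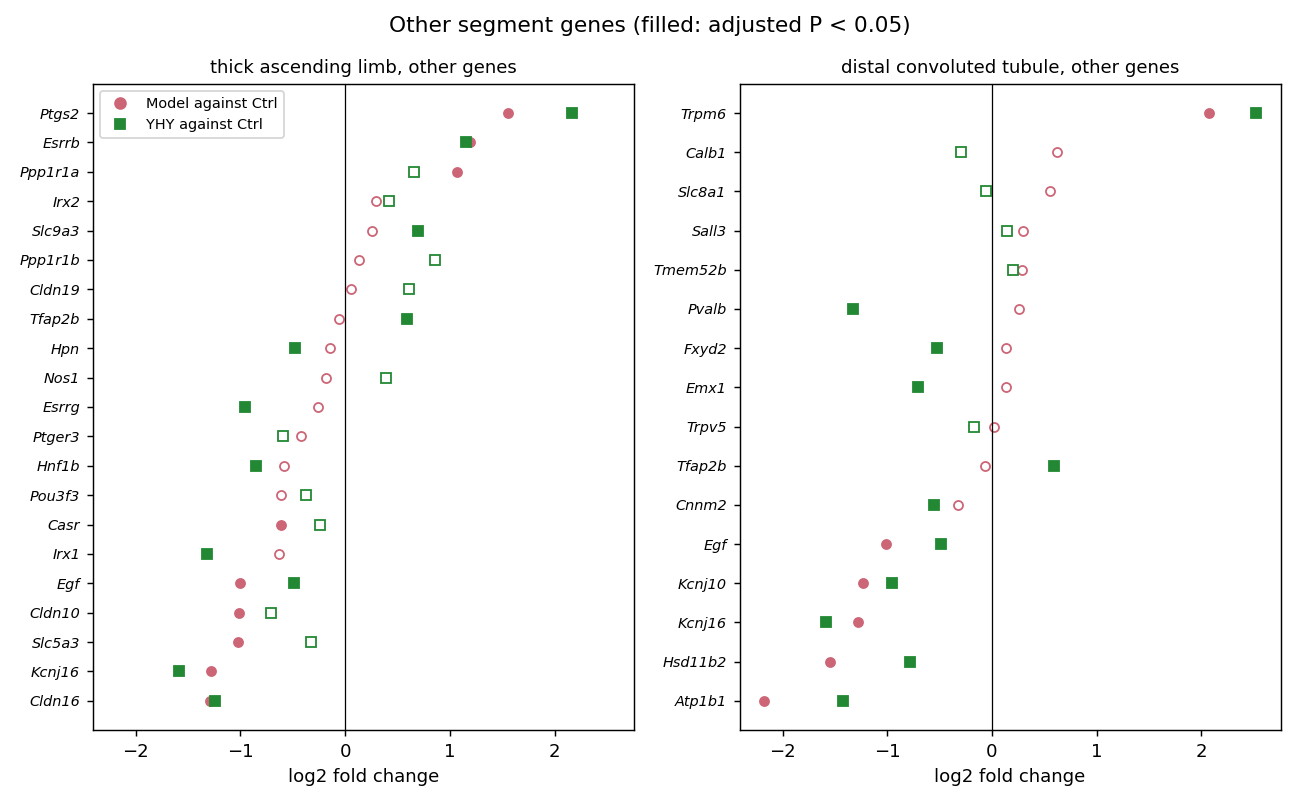
Log2 fold change (horizontal axes) of other genes of both segments, for Model against Ctrl (circles) and YHY against Ctrl (squares), filled where the edgeR adjusted P was under 0.05. Trpm6 lies far right at 2.07 and 2.52, and Atp1b1 far left at -2.18 and -1.42.

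Among regulators of the WNK-SPAK kinases and other cation chloride cotransporters, 19 of 20 were tested (Wnk3 did not pass the filter), and 3 were higher and 7 lower in Model, where 19.6% of all genes were higher and 18.5% lower, with a median of -0.27 against 0.04 for all genes. Cul3, the ubiquitin ligase scaffold that Klhl3 binds, was lower (-1.08, SE 0.14, edgeR adjusted P = 4.32e-05), as was the cotransporter gene Slc12a2 (-1.13, SE 0.23, edgeR adjusted P = 0.00111). The phosphatase gene Ppp1ca was lower at -0.91 (SE 0.13, edgeR adjusted P = 9.24e-05). Cul3 levels were 106 ± 6.30 CPM for Ctrl, 50.0 ± 6.48 for Model and 57.7 ± 7.71 for YHY mice (SD, n = 4). For YHY against Ctrl, 3 were higher and 7 lower, where 26.1% of all genes were higher and 24.2% lower. The median was -0.36 against 0.10 for all genes. Klhl2, the closest relative of Klhl3, was lower there (-0.89, SE 0.14, edgeR adjusted P = 0.000106), and Sgk1, a kinase induced by aldosterone and glucocorticoids, was higher (1.43, SE 0.33, edgeR adjusted P = 0.00196). For YHY against Model, 5.63% of all genes were higher and 7.62% lower. In this list 1 was higher and 1 lower, Sgk1 (1.06, SE 0.33, edgeR adjusted P = 0.0432) and the calcineurin subunit gene Ppp3r1 (-0.60, SE 0.15, edgeR adjusted P = 0.0162). The Sgk1 call against Model was lost without any single one of the 8 mice except YHY mouse 3, and lowest without YHY mouse 4 (0.66, adjusted P = 0.129). It was also lost with library size alone (1.02, adjusted P = 0.079) and with 9 mice (0.70, 0.127). The Ppp3r1 call was lost without Model mouse 3 (-0.57, adjusted P = 0.0547), with library size alone (-0.58, 0.13) and with the 8 mice compared alone (-0.55, 0.0521).

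Markers of other cell types differed between the groups as well. Among all genes, 19.6% were higher and 18.5% lower in Model, and 26.1% and 24.2% in YHY against Ctrl. Of 10 proximal tubule markers, 0 were higher and 5 lower in Model, and 1 was higher and 7 lower in YHY against Ctrl, with Slc34a1 the most abundant. Their summed level was 5829, 7122, 6197 and 5247 CPM in Ctrl, 4065, 3921, 4251 and 3413 CPM in Model, and 1717, 3351, 2237 and 4243 CPM in YHY. Slc7a13 was the most changed of them in Model (-2.33, SE 0.29, edgeR adjusted P = 2.68e-05), next to Lrp2 (-1.68, SE 0.29, edgeR adjusted P = 0.0004), while Slc34a1 did not pass the test (0.06, SE 0.29, edgeR adjusted P = 0.893). For YHY against Model 3 of the 10 were lower, Fbp1, Slc7a13 and Gatm, where 7.62% of all genes were lower. Of the 3 calls, Slc7a13 was lost under 1 of 18 alternatives and Gatm under 4. None of these 10 markers was at 0 in any mouse.

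Of 6 thin limb and inner medulla markers, 2 were lower in Model and 1 in YHY against Ctrl. The shares of all genes were 19.6% higher and 18.5% lower in Model, and 26.1% and 24.2% in YHY against Ctrl. Summed levels of the 6 markers were 916, 651, 983 and 1470.0 CPM in Ctrl, 394, 437, 454 and 616 CPM in Model, and 609.5, 178, 517 and 254 CPM in YHY. Aqp1, which proximal tubule also expresses, was the most abundant, and the inner medullary Aqp4 was lower in Model (-2.43, SE 0.53, edgeR adjusted P = 0.00198). Of 6 collecting duct markers, 5 were tested and 2 were lower in Model (Avpr2 did not pass the filter and was at 0 in some mice), with Aqp2 the most abundant and sums of 853, 507, 570 and 1369 CPM in Ctrl, 497, 307, 377 and 378 CPM in Model, and 689, 252, 360 and 210.1 CPM in YHY. The Aqp2 call in Model was lost under 7 of 18 alternatives. Of the 5, 1 was higher and 2 were lower in YHY against Ctrl, Aqp2 (-1.43, SE 0.42, edgeR adjusted P = 0.0101) and Aqp3 (-1.93, edgeR adjusted P = 7.77e-05), while Scnn1b was higher (0.52, SE 0.21, edgeR adjusted P = 0.0487), a call lost under 8 of 18 alternatives. The mean sums of proximal tubule, thin limb and collecting duct markers were lower in both db/db groups, in which Umod and Kcnj1 were also lower, but the last 2 sums consist mostly of Aqp1, which is on the proximal tubule list too (735 CPM in Ctrl), and Aqp2 (650 CPM). The median log2 fold change, in which each marker counts alike, was -0.82 for proximal tubule, -1.11 for thin limb and -0.77 for collecting duct in Model, where all genes had 0.04, and -1.70, -0.12 and -0.15 in YHY against Ctrl, where all genes had 0.10. What part the make-up of the tissue piece had in any of these results was not tested.

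For the remaining cell types, summed levels in Ctrl, Model and YHY were 235 ± 36.3, 219 ± 54.1 and 167 ± 35.4 CPM for intercalated cells, and 129 ± 18.3, 154 ± 65.7 and 107 ± 36.2 CPM for podocytes (SD, n = 4). For endothelium they were 180.4 ± 22.7, 217 ± 24.5 and 217 ± 46.4 CPM, for mesenchyme and renin cells 204 ± 27.9, 177 ± 29.4 and 162 ± 34.3 CPM, and for immune cells 31.3 ± 6.09, 26.3 ± 3.29 and 39.5 ± 8.55 CPM. In Model against Ctrl, 19.6% of all genes were higher and 18.5% lower. Of 6 intercalated cell markers 0 were higher and 1 lower there, and of 5 podocyte markers 2 and 0. For 5 endothelial markers the counts were 2 and 0, for 5 mesenchymal markers 1 and 0, and for 5 immune markers tested 1 and 1. With library size alone, all of the calls for higher levels except Nphs1 were lost, those of Synpo (0.11, adjusted P = 0.732), Flt1 (0.24, 0.271), Ehd3 (0.29, 0.269), Pdgfrb (0.06, 0.802) and Cd68 (0.62, 0.0964). The intercalated cell call, Foxi1, was lost under 8 of 18 alternatives, Synpo under 10 and Pdgfrb under 7. In YHY against Ctrl, where 26.1% of all genes were higher and 24.2% lower, 0 markers were higher and 1 lower for intercalated cells. Podocytes had 3 and 1, endothelium 2 and 0, mesenchyme and renin cells 1 and 1, and immune cells 1 and 1. Higher calls lost there with library size alone were Wt1 (0.79, adjusted P = 0.0582), Synpo, Flt1, Ehd3 and Pdgfrb, whereas the lower Podxl (-0.9995, SE 0.26, edgeR adjusted P = 0.00397) and Ren1 (-1.63, SE 0.43, edgeR adjusted P = 0.00494) were lost under 0 of 18 alternatives. YHY against Model had 1 call in these lists, the intercalated cell gene Atp6v1g3, which was lower (-1.13, SE 0.23, edgeR adjusted P = 0.00568) and lost under 0 of 18. In that comparison 5.63% of all genes were higher and 7.62% lower. The 3 markers of the thick ascending limb itself, Slc12a1, Umod and Cldn16, had sums of 1712 ± 514 CPM for Ctrl, 888 ± 168 for Model and 1276 ± 471 for YHY mice, and those of the distal convoluted tubule, Slc12a3, Pvalb and Trpm6, had 224 ± 64.8, 470 ± 30.1 and 406 ± 111 CPM (SD, n = 4). The first sums consist mostly of Slc12a1 (means of 782.9, 757.8 and 1024 CPM) and Umod (920.2, 126.3 and 247.7 CPM). The second consist mostly of Slc12a3 (138.6, 348.5 and 337.0 CPM). In Model against Ctrl, 0 were higher and 2 lower for the first segment and 2 and 0 for the second, and in YHY against Ctrl 0 and 2, and 2 and 1. None of the 6 was at 0 in any mouse.

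Among 10204 genes with a mean of at least 5 CPM, those whose deviations from the group means over 12 mice were most like Slc12a1 were Erbb4 (Pearson r = 0.967), Slc14a2 (0.958), Fabp4 (0.954), Aktip (0.954) and Vezf1 (0.952). Slc14a2, a urea transporter gene of the inner medulla, was on the thin limb list. Most like Slc12a3 were Enkd1 (0.964), Miip (0.951), Nr1h2 (0.948), Eif4g3 (0.937) and Elmo3 (0.936). The 12 points share library depth and scaling, and these values are a description.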

How the data were processed

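Kidney RNA of 12 mice was sequenced as poly(A) libraries. The deposited file used here holds raw read counts per gene from the authors. The submitters' notes name HISAT2 2.2.1, featureCounts 2.0.1 and GRCm39. Deposited comparison tables hold the authors' fold changes and P values and gave no value printed here, nor did their 12 per-mouse columns. Mice were grouped by their labels. Genes were filtered (filterByExpr), scaled (TMM) and fitted for all 3 groups together with edgeR 4.0.16 (glmQLFit, glmQLFTest) in R 4.3.3, with Benjamini-Hochberg adjustment over 17431 genes. The fit was tested on simulated counts. Intervals for fold changes are at 95%. Ratios of counts (pseudocount 0.5) were compared by exact two-sided permutation tests in scipy 1.17.1, adjusted over 4 ratios and 3 comparisons. FPKM used the deposited gene lengths. Figures were drawn with matplotlib 3.10.9.

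Alternatives were library size alone, upper-quartile scaling, TMM without mitochondrial transcripts, DESeq2 1.42.0, 2 other filters, only the 8 mice compared, 9 mice (without Ctrl 2, Model 1 and YHY 4, chosen from an earlier account of these files), a replicate block, the study's limits (fold over 1.2, unadjusted P under 0.05) and each mouse left out. The 9 genes were described in full. From each list and comparison, genes were named among the 4 with the largest fold change past the threshold and a mean of at least 1 CPM, with the most abundant marker, and the 5 genes most like Slc12a1 and Slc12a3 by Pearson r of log2 CPM deviations, leaving out Gm, Rik and mt- names. Some genes of the lists count in their totals and medians but are not reported here by name. Members and lists were chosen with earlier results of these data known.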

Additional observations from a re-analysis of the deposited data

Results flagged for a closer look

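Of 39 sets of 4 mice checked (the CPM of the 9 genes and the 4 ratios in each group), 3 held a mouse far from the others, where chance gives about 5% of sets. Slc12a3 in YHY mouse 2 was at 466 CPM, against 276 to 304 CPM for the rest of its group. Klhl3 in the same mouse was at 101 CPM, against 38.9 to 44.0 CPM. Wnk4 in Ctrl mouse 4 was at 89.8 CPM, against 63.9 to 65.9 CPM. YHY mouse 2 also had the highest mitochondrial share, 64.6% of counts, and the lowest TMM factor, 0.72. By library size alone, an alternative chosen after seeing the data, 0 of the sets held such a mouse. Slc12a3 was then at 335 CPM in YHY mouse 2, against 240 to 314 CPM, Klhl3 at 72.5 CPM, against 38.3 to 44.2 CPM (only just within the limit, with a gap of 0.828 of the range), and Wnk4 in Ctrl mouse 4 at 121 CPM, against 70.6 to 81.0 CPM. The part of the mitochondrial share in these values was not tested.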

How the results depend on the processing

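Under 18 alternatives each, Umod, Slc12a3, Wnk4 and Klhl3 passed the threshold in the same direction against Ctrl, in Model and in YHY. Their highest adjusted P was 0.00526, for Klhl3 in Model. Log2 fold changes in Model ran from -3.42 to -2.70 for Umod, 0.90 to 1.59 for Slc12a3, 0.88 to 1.45 for Wnk4 and 0.87 to 1.40 for Klhl3. Those of YHY against Ctrl ran from -2.29 to -1.63, 0.84 to 1.51, 1.10 to 1.66 and 0.98 to 1.64 in the same order. Slc12a1 in Model ran from -0.49 to 0.064. Over the 9 genes, 151 of 162 results for Model against Ctrl had the same direction and side of the threshold, 139 of 162 for YHY against Model and 147 of 162 for YHY against Ctrl. Of 70 calls in the lists that were followed (up to 4 per list and comparison), 97 of 1260 results missed the threshold and 0 turned.

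With library size alone, 1547 genes were higher and 5670 lower in Model against Ctrl, 491 higher and 687 lower in YHY against Model, and 2365 higher in YHY against Ctrl. Signs turned there for Bsnd (-0.12) and Stk39 (-0.19) in Model, Slc12a1 (-0.014) and Stk39 (-0.12) in YHY against Ctrl, and Wnk1 (-0.045) in YHY against Model. Slc12a1 in Model was 0.058 with upper-quartile scaling. Of the 9 genes 1, Umod, became higher in YHY against Model with DESeq2, without a filter and under the study's limits. All genes called higher there numbered 1435, 1068 and 2429 in that order, and those called lower 1685, 1387 and 2559. For YHY against Ctrl, 1 gene in place of 2 was lower with upper-quartile scaling, DESeq2 or the 8 mice compared, since Kcnj1 was lost. The 8 mice gave 692 genes lower in YHY against Model and Slc12a3 at 0.0012. Wnk1 in YHY against Model was -0.0098 without a filter and -0.028 with 9 mice. The causes were not tested. Fits with fewer mice were also filtered and scaled anew.

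Leaving out each mouse in turn gave 1 to 2 of the 9 genes lower in Model and in YHY against Ctrl, and 0 to 1 higher in YHY against Model, where 419 to 1043 genes were higher and 727 to 1678 lower. The lowest counts of all genes came without Model mouse 3. Ranges that crossed 0 were -0.25 to 0.064 for Slc12a1 in Model, and, in YHY against Model, -0.25 to 0.14 for Wnk1, -0.25 to 0.034 for Slc12a3, -0.10 to 0.16 for Stk39, -0.0074 to 0.40 for Bsnd, -0.25 to 0.33 for Klhl3 and -0.31 to 0.42 for Kcnj1. All ratios moved by less than the spread between mice, also with a pseudocount of 5.

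With a replicate block, 1 of the 9 genes was higher in YHY against Model (Umod, 0.89, edgeR adjusted P = 0.0475), as were 793 of all genes. Slc12a1 in Model was then 0.034 and Wnk1 in YHY against Model -0.051. Deviations of mice with the same number correlated at -0.173 to 0.125, and no pairing by number was seen in these values. The lowest value of the 9 genes was 16.5 CPM, in libraries of 24415658 counts or more.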
